A study of Saccharomyces cerevisiae with 18 samples.

Results

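Truncation of the HLB domain of Ioc3 was compared with loss of the whole IOC3 gene in budding yeast, Saccharomyces cerevisiae, in strains that both kept YAF9. The comparison rests on 6 of the 18 RNA-seq libraries of the series, namely 3 of ioc3ΔcHLB (labelled Ioc3△cHLB) and 3 of ioc3Δ (labelled △Ioc3), and takes every gene that passed a filter on low values, 5786 of the 5830 in the deposited table. ioc3ΔcHLB carries IOC3 without the C-terminal part of the HLB coding region, and ioc3Δ lacks the gene. Beside them stand 3 other strains: ioc3ΔcHLB yaf9Δ and ioc3Δ yaf9Δ, in which the same pair of IOC3 alleles was set on a YAF9 deletion, and the wild type (WT). The sixth strain, yaf9Δ alone, entered only the filter on low values, the estimate of the spread between libraries and the scaling in some alternative fits. Each strain had 3 libraries labelled as biological replicates, and all strains were labelled as BY4742 with a FLAG epitope tag. All were grown in rich glucose medium (YPD) to mid-log phase, so the medium and the growth phase were shared by every group. The study's methods place FLAG on IOC2 and IOC3. A strain without IOC3 has no Ioc3 to carry it, so the tag is not taken as shared. The labels do not say how many transformants or clones stand behind a strain, and the p-values measure the spread between these libraries only.

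Isw1 is an ATPase that slides and spaces nucleosomes, and it works in a pair of complexes in yeast. ISW1a holds Isw1 and Ioc3, and ISW1b holds Isw1 with Ioc2 and Ioc4. Ioc3 contacts DNA beyond the nucleosome core through its HLB (helical linker DNA binding) domain, and ISW1a is known for holding nucleosomes near the starts of genes. Deleting IOC3 removes the partner of Isw1 in ISW1a, while the cHLB truncation takes out an alpha helix of the DNA-binding domain and a neighbouring beta strand and was described as leaving the complex assembled. Yaf9 is a histone-tail reader shared by the NuA4 acetyltransferase and the SWR1 complex, which places the histone variant H2A.Z.

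The level of IOC3 itself separated the strains. IOC3 (YFR013W, chromosome VI, 169922 to 172285 in the sacCer3 build, plus strand) had 71.2, 62.9 and 60.7 CPM (reads of a gene scaled to the size of its library) in ioc3ΔcHLB, 0, 0 and 0.356 CPM in ioc3Δ, and 59.7, 58.3 and 62.4 CPM in WT. The truncated transcript overlapped the range of the full gene in WT. Over both mutants, 2 reads over the 3 ioc3Δ libraries were left against 1285 over the 3 ioc3ΔcHLB libraries, a ratio of 852 with a 95% exact interval of 235 to 7045 that covers counting error only. A value per gene does not show which part of IOC3 was missing. YAF9 had 37.0, 31.7 and 30.8 CPM in ioc3ΔcHLB and 29.6, 33.6 and 27.9 CPM in ioc3Δ, and 0 CPM in all 6 libraries of both yaf9Δ pairs. None of the 6 tested neighbours of IOC3 within 5000 bp was called, and the nearest to the line was CMK1, a calmodulin-dependent kinase gene that is read toward IOC3 from its far side, with 22.2, 20.6 and 20.6 CPM in ioc3ΔcHLB against 30.7, 37.3 and 27.2 CPM in ioc3Δ (difference -0.55 in log2(CPM + 1), just under 1.5-fold). CMK1 passed the line in 5 of 16 alternative fits, among them those without ioc3Δ replicate 3 (-0.65) and without ioc3ΔcHLB replicate 1 (-0.59). The catalytic subunit ISW1 and the ISW1b subunits IOC2 and IOC4 were expressed at 105 to 110, 67.7 to 85.0 and 54.9 to 75.9 CPM in ioc3ΔcHLB and at 83.1 to 108, 59.0 to 88.2 and 59.7 to 72.5 CPM in ioc3Δ. The ranges overlapped for all 3 genes, and none was called, nor were the remodeler genes ISW2 and CHD1 or the H2A.Z gene HTZ1.

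The libraries held 5145170 to 10192972 assigned reads, with 5259739 to 10192972 in the 6 compared here. The labelled strain background could be checked against markers. BY4742 is a haploid of mating type alpha, yet the a-cell genes were high everywhere, with a summed level of 2188 to 2565 CPM in ioc3ΔcHLB, 2192 to 2360 CPM in ioc3Δ and 2061 to 2566 CPM in WT over the 7 a-specific genes, led by the alpha-factor receptor STE2. The 4 alpha-specific genes summed to 37.3 to 56.7, 54.1 to 63.2 and 30.4 to 45.6 CPM in the same strains. Most of it was SAG1, with STE3 a larger part in the mutants than in WT, while the pheromone precursors MFALPHA1 and MFALPHA2 were at or near 0. LEU2, LYS2 and URA3, which BY4742 lacks, were read in every library, LYS2 for instance at 182 to 204 CPM in ioc3ΔcHLB, 160 to 197 CPM in ioc3Δ and 156 to 228 CPM in WT. The markers therefore do not match the labelled background, and the same pattern was seen in every group. Replicate 3 of ioc3ΔcHLB and replicate 2 of WT stood apart from their fellows across all genes. The chi-square per degree of freedom between libraries was 46.1 and 35.3 for the first against its fellows and 20.1 between those, and 58.0 and 51.7 for WT replicate 2, with 15.3 between the others. Among pairs of replicates of ioc3Δ it was 23.8 to 43.2. Over all tested genes the deviations of these 2 libraries from their strain means correlated at 0.62, and both were high in TIR1, a cell wall mannoprotein gene, at 29.7, 29.8 and 319 CPM in ioc3ΔcHLB, 10.8, 9.23 and 8.18 CPM in ioc3Δ and 9.49, 197 and 10.7 CPM in WT. In RNA from whole cultures, fewer cells expressing a gene and less RNA per cell cannot be told apart.

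The question behind the comparison is how much of what Ioc3 does for transcription rests on this part of its HLB domain. A gene was called where limma gave an adjusted p under 0.1 (Benjamini-Hochberg over all tested genes) and the difference was at least 1.5-fold, with differences always ioc3ΔcHLB minus ioc3Δ in log2(CPM + 1). By that rule 578 genes were called, 9.99% of those tested, of which 140 (2.42%) were higher and 438 (7.57%) lower in ioc3ΔcHLB than in ioc3Δ. Counts called within gene lists are to be read beside these shares. At least 2-fold differences were seen for 34 genes higher and 173 lower, and at least 4-fold for 9 higher and 12 lower, while the median over all tested genes was -0.01. The libraries of the strains did not overlap for 94.6% of the called genes and for 31.2% of all tested genes. The median difference by chromosome stayed between -0.06, on chromosome I, and 0.03, on chromosome XIV. Of the 578 genes, 336 (66 higher, 270 lower) were called in each of the 6 fits that left out 1 of the compared libraries, with 444 to 636 genes called per fit.

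**Figure D1:**
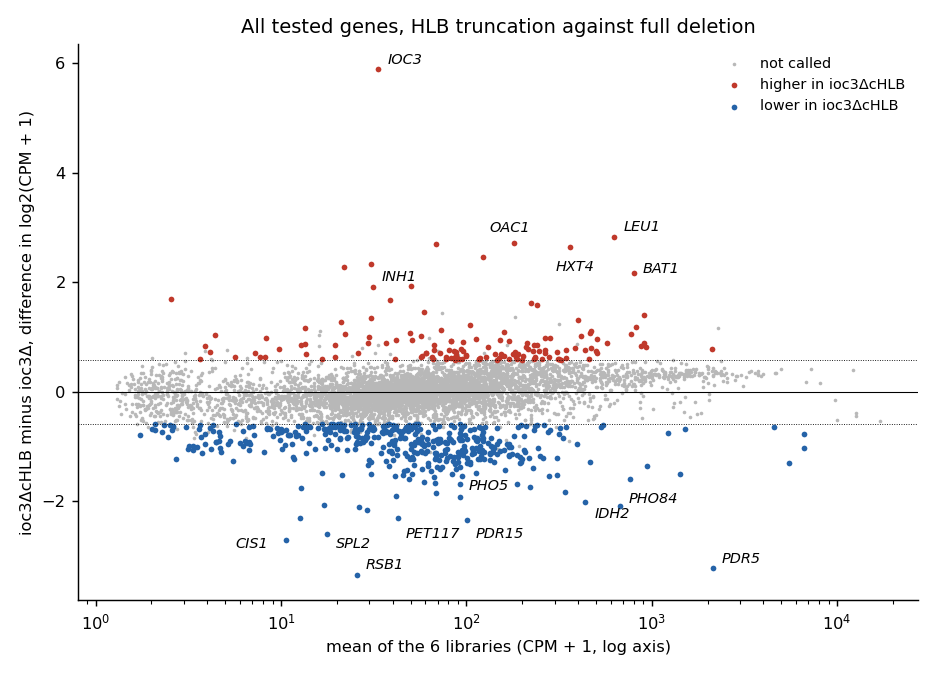
Mean level of each tested gene over the 6 libraries (CPM + 1, log axis) against the difference ioc3ΔcHLB minus ioc3Δ in log2(CPM + 1). Red and blue points are the 140 genes called higher and the 438 called lower in ioc3ΔcHLB, grey points the rest, and dotted lines mark 1.5-fold; PDR5 and RSB1 lie lowest and IOC3 and LEU1 highest among the labelled genes.

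WT gives the reference level for both mutants. In the same fit 20 genes (0.346%) were called between ioc3ΔcHLB and WT and 703 (12.2%) between ioc3Δ and WT. Without WT replicate 2 the counts were 74 and 637. The first was also 9 and 10 without WT replicates 1 and 3 and 13 and 8 without ioc3ΔcHLB replicates 2 and 3, while the second stayed between 591 and 745 over the 6 fits without 1 library of ioc3Δ or WT. The 140 genes higher in ioc3ΔcHLB than in ioc3Δ had a median of 0.00 in ioc3ΔcHLB minus WT and of -0.77 in ioc3Δ minus WT, and the 438 lower genes had medians of -0.18 and 0.77. These values share libraries with the comparison that chose the genes and are given side by side as a description.

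Apart from IOC3, the largest differences lay in the pleiotropic drug resistance genes. Pdr1 and Pdr3 are zinc-cluster transcription factors that bind short sites upstream of genes for drug efflux pumps and lipid-handling proteins. PDR5, the main drug efflux pump, had 412, 431 and 380 CPM in ioc3ΔcHLB, 4194, 3020 and 4340 CPM in ioc3Δ and 514, 338 and 423 CPM in WT. All 3 ioc3Δ libraries were far above those of ioc3ΔcHLB and WT, which overlapped each other. The difference was -3.22 ± 0.18 (SE, adjusted p = 6.4e-09, limma). RSB1, which moves sphingoid bases across the plasma membrane, had 2.10, 4.93 and 3.88 CPM in ioc3ΔcHLB, 59.5, 39.7 and 37.3 CPM in ioc3Δ and 1.40, 3.07 and 0.690 CPM in WT, a difference of -3.35 ± 0.32. CIS1, whose product acts when mitochondrial protein import is overloaded, had 1.80, 1.59 and 1.74 CPM in ioc3ΔcHLB against 22.7, 11.2 and 18.5 CPM in ioc3Δ. Both genes were close to silent with the truncated protein and plainly read without Ioc3. PDR15, a pump gene closely related to PDR5, was lower by -2.35 ± 0.21, with 29.4 to 34.3 CPM in ioc3ΔcHLB and 133 to 186 CPM in ioc3Δ.

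Among the factors themselves, PDR3 had 38.5, 40.7 and 48.0 CPM in ioc3ΔcHLB, 148, 113 and 160 CPM in ioc3Δ and 52.6, 39.2 and 37.8 CPM in WT, a difference of -1.69 ± 0.14 (adjusted p = 1.3e-06, limma). PDR1 did not follow it. It had 63.2, 64.1 and 53.4 CPM in ioc3ΔcHLB against 60.5, 62.4 and 65.9 CPM in ioc3Δ, with a 95% interval of the difference of -0.26 to 0.12. Over the list of 15 Pdr1/Pdr3 targets, 0 were called higher and 5 lower, with a median of -0.55, beside 2.42% and 7.57% of all tested genes. The fifth was PDR16, a phosphatidylinositol transfer protein gene, at -0.61, whose call was lost without ioc3ΔcHLB replicate 2 (-0.39, adjusted p = 0.097) or ioc3Δ replicate 3 (-0.55, adjusted p = 0.082). Without ioc3Δ replicate 2 the list had 8 called lower. Other pump genes of the list were level, with SNQ2 at 606 to 872 CPM in ioc3ΔcHLB and 604 to 767 CPM in ioc3Δ, YOR1 at 102 to 148 and 124 to 174 CPM, and PDR10 at 29.9 to 38.8 and 24.4 to 37.0 CPM in the same strains. All 3 overlapped between strains and none was called.

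The genes on either side of PDR5 also differed. ATG40, an ER-phagy receptor gene that is read away from PDR5 on the other strand, had 10.4, 9.16 and 7.36 CPM in ioc3ΔcHLB, 47.5, 34.6 and 43.0 CPM in ioc3Δ and 7.54, 7.94 and 7.59 CPM in WT, a difference of -2.10 ± 0.16. SLP1, which follows PDR5 on the same strand, went the other way with 79.6, 75.4 and 67.6 CPM in ioc3ΔcHLB against 38.3, 49.3 and 47.6 CPM in ioc3Δ (0.71 ± 0.14). OSI1, which is not next to any of these genes, had 5.56, 6.70 and 3.88 CPM in ioc3ΔcHLB and 30.9, 15.9 and 33.2 CPM in ioc3Δ. The groups did not overlap for any of the 3 genes, a condition of the naming rule except for SLP1. Counting was done on a strand-marking library type, but how strand was set in the counting step was not given in the sources used here.

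The Pdr1/Pdr3 sites upstream of these genes are shown because targets with and without a difference carry the same letters. Each line is 30 bases of the gene strand from the RefSeq R64 assembly, which is the sacCer3 build, with matches to TCCGNGGA in capitals. PDR5 has 4 matches in the 600 bases before its start codon, PDR3 and PDR10 have 2 each, and no match was found in that window for RSB1.
PDR5, chrXV:619266-619295, plus strand: ccgagaaaacgTCCGTGGAgaaccattcgg
PDR5, chrXV:619338-619367, plus strand: gcccctctcttTCCGCGGAatcgctcatgc
PDR5, chrXV:619454-619483, plus strand: ggactcgtgatTCCGTGGAaaggtcagatc
PDR5, chrXV:619516-619545, plus strand: agagaaatgtcTCCGCGGAactcttctacg
PDR15, chrIV:1278820-1278849, plus strand: cgcatgctcgtTCCGCGGAgagtctcgagc
CIS1, chrXII:822899-822928, minus strand: atccgcctattTCCGCGGAatcaatagggc
PDR3, chrII:217235-217264, plus strand: ctgcccttgttTCCGCGGAgctgcctcctc
PDR3, chrII:217268-217297, plus strand: cgctcggacttTCCGCGGAataataaatga
SNQ2, chrIV:465324-465353, plus strand: tattttaagttTCCGCGGAtgcctttcgat
YOR1, chrVII:1052412-1052441, plus strand: taacgcgtggtTCCGTGGAaatagccggaa
Over both strands of the 600-base windows, 3.53% of the 5610 tested genes with an annotated start hold a match, against 6.24% of the called lower genes, 3.82% of the called higher genes and 93.3% of the target list, which is a list of known targets of these factors. SNQ2 and YOR1, which were not called, hold the same 8 letters as PDR15 or PDR5.

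Phosphate genes formed the next group of large differences. When phosphate runs short, the factor Pho4 switches on transporters, secreted phosphatases and the enzymes of polyphosphate storage. PHO84, the high-affinity phosphate transporter, had 169, 338 and 270 CPM in ioc3ΔcHLB, 1296, 1108 and 840 CPM in ioc3Δ and 139, 164 and 103 CPM in WT, a difference of -2.09 ± 0.46 (adjusted p = 0.0067, limma). All ioc3ΔcHLB libraries were below all ioc3Δ libraries and above WT. SPL2, which restrains low-affinity phosphate uptake, had 3.91, 3.52 and 4.28 CPM in ioc3ΔcHLB, 37.2, 30.7 and 20.4 CPM in ioc3Δ and 2.51, 2.82 and 1.49 CPM in WT (-2.60 ± 0.30). The secreted acid phosphatase gene PHO5 had 39.8, 27.3 and 40.0 CPM in ioc3ΔcHLB, 212, 146 and 83.0 CPM in ioc3Δ and 24.0, 16 and 16.7 CPM in WT (-1.93 ± 0.29). In these 3 genes ioc3Δ was the high strain. Each ioc3ΔcHLB library was above each WT library, by 0.90, 0.60 and 0.89 in log2(CPM + 1) for PHO84, SPL2 and PHO5, and none of these was called against WT.

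PHO11 and PHO12, a nearly identical pair of acid phosphatase genes whose reads cannot be fully divided, were at -2.30 and -2.15, with 2.14 to 3.61 and 8.11 to 10.8 CPM in ioc3ΔcHLB against 9.42 to 26.8 and 25.6 to 57.7 CPM in ioc3Δ. With PHO5 and the phosphatase gene PHM8 (-1.43) they made 4 of the 6 phosphatase genes called lower, none called higher, median -1.68. Over all tested genes 7.57% were called lower and 2.42% higher. Of the 7 polyphosphate genes, 3 were called lower and none higher: VTC3 (-1.15) and VTC4 (-0.71), subunits of the polyphosphate-making vacuolar complex, and PHM6 (-1.77). VTC3 had 103, 129 and 112 CPM in ioc3ΔcHLB and 274, 295 and 203 CPM in ioc3Δ. Of the 8 transport genes, 3 were called lower and 1 higher. The third lower gene, the sodium-coupled transporter PHO89, was at -0.71 with a call lost in each of the 6 fits without 1 library (adjusted p = 0.11 to 0.21), and the higher gene, the low-affinity transporter PHO90 (0.59), lost its call without ioc3ΔcHLB replicate 2 (0.45) or ioc3Δ replicate 2 (0.52), where the difference was under 1.5-fold. None of the 5 regulators was called, with an unadjusted p under 0.05 for 1 of them (limma), nor was any called by edgeR or DESeq2, and PHO4 itself had 53.0 to 84.3 CPM in ioc3ΔcHLB and 44.4 to 70.5 CPM in ioc3Δ.

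The Pho4 site CACGTG is shown for the genes with the largest differences, in capitals within 30 bases of the gene strand. PHO84 and VTC3 have 2 matches each in the 600 bases before the start codon, SPL2 has 4, and PHM8 has none. The windows of PHO11 and PHO12 are the same in every letter.
SPL2, chrVIII:375230-375259, minus strand: aaatgatgtacgCACGTGggcgaaagttca
PHO84, chrXIII:26219-26248, minus strand: atttaatagttcCACGTGgacgtgttattt
PHO84, chrXIII:26197-26226, minus strand: tgttatttccagCACGTGgggcggaaatta
PHO5, chrII:431187-431216, minus strand: ccttggcactcaCACGTGggactagcacag
PHO11, chrI:225165-225194, plus strand: tcttggcgttcaCACGTGggtttaaaaagg
PHO12, chrVIII:551804-551833, plus strand: tcttggcgttcaCACGTGggtttaaaaagg
VTC3, chrXVI:517346-517375, minus strand: tgtgcgagggccCACGTGgcttaatacaac
Matches stood in 87.5% of the 8 transport genes, 66.7% of the 6 phosphatase genes, 71.4% of the 7 polyphosphate genes and 7.34% of all tested genes, and in 10.2% of the called lower and 12.2% of the called higher genes. CACGTG is also the core of sites for Cbf1 and other factors.

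In the other direction, genes of branched-chain amino acid synthesis led. Leucine, isoleucine and valine are made by enzymes partly held in mitochondria, and the zinc-cluster factor Leu3 activates many of their genes. LEU1, isopropylmalate isomerase, had 1008, 833 and 1479 CPM in ioc3ΔcHLB, 164, 133 and 153 CPM in ioc3Δ and 870, 1649 and 886 CPM in WT, a difference of 2.84 ± 0.21 (adjusted p = 6.3e-07, limma). OAC1, a mitochondrial carrier that exports the leucine precursor isopropylmalate, had 311, 253 and 380 CPM in ioc3ΔcHLB, 53.1, 36.5 and 50.7 CPM in ioc3Δ and 276, 494 and 299 CPM in WT (2.72 ± 0.22). BAT1, the mitochondrial branched-chain aminotransferase, had 1047, 1209 and 1665 CPM in ioc3ΔcHLB, 353, 237 and 272 CPM in ioc3Δ and 1218, 1612 and 992 CPM in WT (2.17 ± 0.18). For all 3 genes the ioc3ΔcHLB and WT libraries overlapped and every ioc3Δ library lay below both.

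Of the 13 genes of the list, 9 were called higher and 0 lower, with a median of 0.96, beside 2.42% and 7.57% of all tested genes. ILV3, dihydroxyacid dehydratase, was at 1.40, LEU4 and LEU9, the isopropylmalate synthases, at 1.02 and 0.77, ILV2, acetolactate synthase, at 0.96 and ILV5 at 0.78. LEU2 (0.97) had 127, 110 and 205 CPM in ioc3ΔcHLB against 84.1, 48.3 and 92.4 CPM in ioc3Δ, and its call was lost by a narrow margin without ioc3ΔcHLB replicate 3 (0.70, adjusted p = 0.101) or ioc3Δ replicate 2 (0.68, adjusted p = 0.104). The cytosolic aminotransferase BAT2, at 182 to 227 CPM in ioc3ΔcHLB and 194 to 258 CPM in ioc3Δ, and LEU3 itself, at 72.2 to 84.9 and 60.3 to 71.3 CPM, were not called. Outside the list, the branched-chain permease gene BAP2 (0.80), the mitochondrial aldehyde dehydrogenase gene ALD5 (1.62 ± 0.14) and the mitochondrial malic enzyme gene MAE1 (1.30) were called higher.

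The core letters of the Leu3 site, CGGNNCCG, are shown in capitals for the members with the largest differences and for ILV5, at the low end of those called. No match was found in the 600 bases before the start codon of OAC1, ALD5, LEU9 or MAE1.
LEU1, chrVII:478850-478879, minus strand: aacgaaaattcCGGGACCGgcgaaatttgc
BAT1, chrVIII:517375-517404, plus strand: attgtgtttgcCGGTACCGgcctttaagct
ILV3, chrX:466368-466397, minus strand: ttcgctgcgagCGGAACCGggcctgaaaaa
LEU4, chrXIV:427185-427214, minus strand: tgctaccggagCGGGACCGgctctgagaca
ILV2, chrXIII:483606-483635, plus strand: ccggagcctgcCGGTACCGgcttggcttca
ILV5, chrXII:839611-839640, minus strand: gcggtctcctcCGGTACCGgttctgccacc
In the 600-base windows the letters stood in 3.14% of all tested genes, 15.3% of the called higher genes, 3.23% of the called lower genes and 53.8% of the 13 list members. In a window of 250 bases before to 50 after the start codon the shares were 0.891%, 5.34%, 0.462% and 30.8%. Leu3 letters were not the only ones frequent in the list. The site TGACTC of the factor Gcn4 stood in 76.9% of its members in the 600-base windows. There it stood in 15.6% of all tested genes, 27.5% of the called higher and 12.5% of the called lower genes, and 84.6% of the arginine synthesis list.

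**Figure D2:**
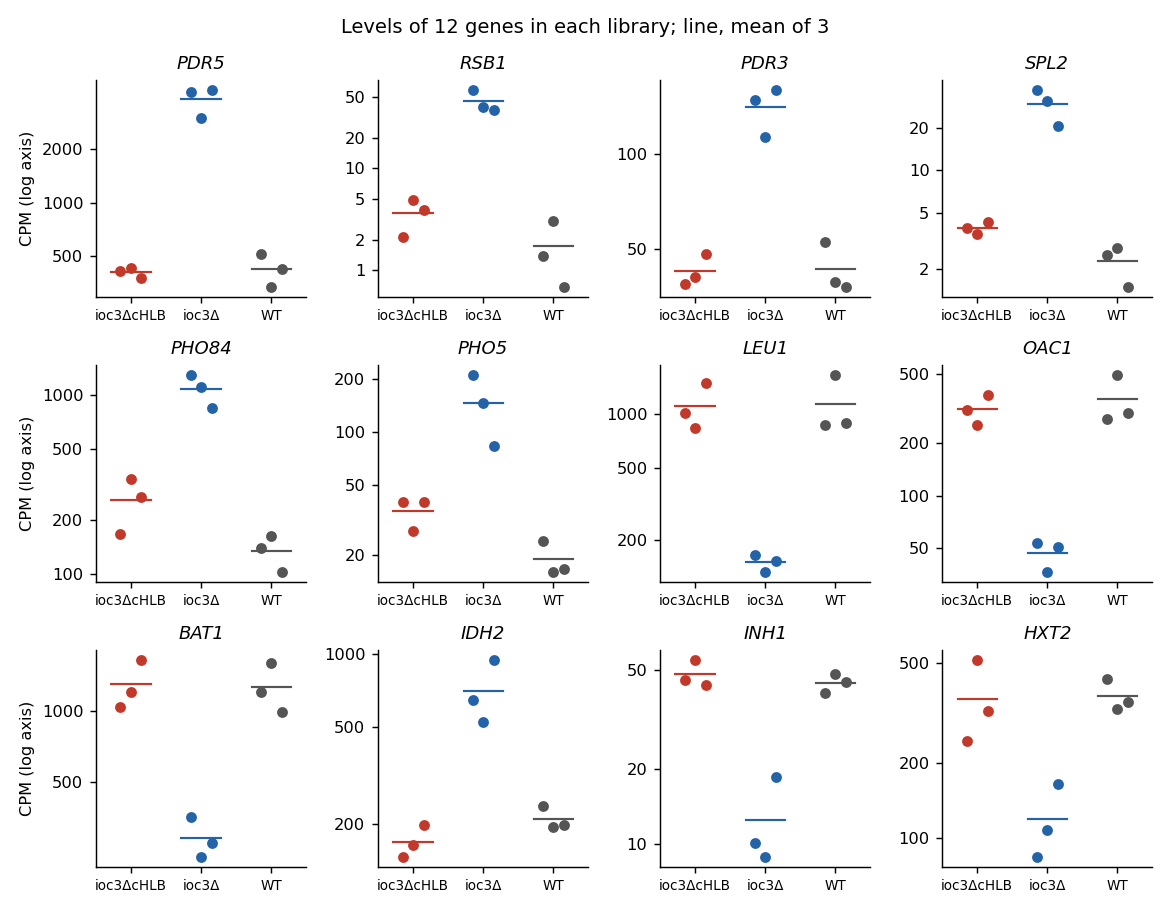
CPM (log axis) of 12 genes in each library of ioc3ΔcHLB (red), ioc3Δ (blue) and WT (grey), with the line at the mean of 3 libraries. In each panel the 3 ioc3ΔcHLB points do not overlap the ioc3Δ points. Lack of overlap was a condition for naming the largest differences, so it is no separate result for such genes. The strain ioc3Δ is high in PDR5, RSB1, PDR3, SPL2, PHO84, PHO5 and IDH2 and low in the other 5 genes.

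Other amino acid genes moved less evenly. Of 13 arginine genes, 7 were called higher and 0 lower, with a median of 0.60, and 4 were called without ioc3Δ replicate 3 or without ioc3ΔcHLB replicate 1. ARG1, argininosuccinate synthetase, had 280, 75.1 and 282 CPM in ioc3ΔcHLB, 35.0, 38.4 and 24.0 CPM in ioc3Δ and 78.3, 602 and 70.8 CPM in WT, a difference of 2.47 ± 0.63. ARG3, ornithine carbamoyltransferase, had 136, 48.5 and 55.7 CPM in ioc3ΔcHLB against 17.9, 21.2 and 15.5 CPM in ioc3Δ (1.93 ± 0.40). The ioc3ΔcHLB libraries spread widely in both genes, replicate 2 of WT was far above the other WT libraries in ARG1, and the mutants did not overlap. ARO10, a decarboxylase of aromatic amino acid breakdown, was at 1.46 ± 0.26 with 75.9, 93.6 and 85.6 CPM in ioc3ΔcHLB, 23.4, 24.8 and 47.3 CPM in ioc3Δ and 178, 106 and 191 CPM in WT, so that both mutants were at or below the WT libraries. MET6, methionine synthase, had the same order, with 439, 698 and 745 CPM in ioc3ΔcHLB, 185, 263 and 470 CPM in ioc3Δ and 1411, 1525 and 1066 CPM in WT (1.10 ± 0.28). Its ioc3ΔcHLB and ioc3Δ libraries overlapped. Over the 19 methionine genes 2 were called higher and 0 lower, and over the 37 genes of other amino acids 1 and 0. Over all tested genes the shares were 2.42% and 7.57%. Over the 11 sulfur assimilation genes none was called either way. Limma's unadjusted p was under 0.05 for 0 of those 11. The methionine count was 4 without ioc3ΔcHLB replicate 1 and 1 without ioc3Δ replicate 1 or 3 or ioc3ΔcHLB replicate 2 or 3, and the single gene of the other amino acids was not called without ioc3ΔcHLB replicate 3.

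Genes of mitochondrial gene expression were called in large numbers. Mitochondrial ribosomes translate the few proteins encoded in mitochondrial DNA, most of them core subunits of the respiratory chain and ATP synthase. Most proteins of these ribosomes are encoded by nuclear genes. All 43 tested genes for large-subunit mitochondrial ribosomal proteins were called lower in ioc3ΔcHLB than in ioc3Δ, with a median of -1.09, against 7.57% of all tested genes. Their summed level was 3170, 2907 and 2011 CPM in ioc3ΔcHLB, 5778, 5421 and 5989 CPM in ioc3Δ and 4025, 2069 and 4243 CPM in WT. All 3 ioc3Δ libraries were above every library of ioc3ΔcHLB and WT, and replicate 3 of ioc3ΔcHLB and replicate 2 of WT were the lowest of these. At least 42 of the 43 were called in every fit without 1 of the compared libraries. MRPL31 had 59.6, 51.3 and 33.6 CPM in ioc3ΔcHLB against 137, 130 and 148 CPM in ioc3Δ (-1.54 ± 0.27, adjusted p = 0.0018, limma), and MRPL28 (-1.44), MRPL32 (-1.41) and MRPL25 (-1.36) came next.

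Small-subunit genes followed, with 31 of 33 called lower, 0 higher and a median of -1.08. RSM19 (-1.50), MRPS8 (-1.38), MRP21 (-1.29) and RSM10 (-1.28) were the largest, and one of the members not called, KGD4, at 16.2 to 23.0 CPM in ioc3ΔcHLB and 18.1 to 20.3 CPM in ioc3Δ, encodes a part of alpha-ketoglutarate dehydrogenase. Of 20 genes for mitochondrial translation factors and tRNA synthetases, 17 were called lower and 0 higher, median -1.12, among them the elongation factor gene MEF1 (-1.40) and the synthetase genes MSF1 (-1.54), MSY1 (-1.51) and MSK1 (-1.49). TUF1, the abundant elongation factor gene, had 394, 481 and 320 CPM in ioc3ΔcHLB against 574, 430 and 681 CPM in ioc3Δ. Those libraries overlapped and TUF1 was not called.

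Genes for assembly of the respiratory complexes moved with the ribosome genes. Of 26 genes for assembly factors of cytochrome c oxidase (complex IV), 22 were called lower and 0 higher, median -0.94, and of 15 for assembly of complex III and ATP synthase 12 and 0, median -1.01. Both of these lists were drawn up after the values had been seen. PET117, a complex IV assembly factor gene, had 17.6, 16 and 8.03 CPM in ioc3ΔcHLB, 64.3, 59.5 and 85.9 CPM in ioc3Δ and 22.6, 7.68 and 23.7 CPM in WT (-2.30 ± 0.36, adjusted p = 0.00096, limma). COX23 (-1.90) and the copper chaperone gene COX17 (-1.85) followed, COX17 with 32.3, 35.4 and 18.9 CPM in ioc3ΔcHLB and 111, 75.4 and 130 CPM in ioc3Δ. The groups were apart in all 3 genes, which was a condition for naming the largest differences. ATP11 (-1.43) and FMC1 (-1.45), chaperone genes of the ATP synthase head, and CYT2 (-1.31), which attaches haem to cytochrome c1, were the largest of the other list. Of 23 import genes, 12 were called lower and 0 higher, median -0.62, led by the processing protease gene MAS1 (-1.11) and the small carrier chaperone genes TIM9 (-1.02) and TIM10 (-0.85). That count was 6 without ioc3ΔcHLB replicate 3.

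The structural subunits of the same complexes went the other way. Of 17 genes of ATP synthase and its regulators, 10 were called higher in ioc3ΔcHLB and 0 lower, median 0.69, beside 2.42% and 7.57% of all tested genes. Their summed level was 3194, 3805 and 3301 CPM in ioc3ΔcHLB, 2203, 1964 and 2248 CPM in ioc3Δ and 3403, 3412 and 3077 CPM in WT, with ioc3Δ below every library of both other strains. INH1, which encodes an inhibitor of ATP hydrolysis by the enzyme, had 45.5, 54.8 and 43.6 CPM in ioc3ΔcHLB against 10.1, 8.89 and 18.7 CPM in ioc3Δ and 40.3, 48.1 and 44.6 CPM in WT (1.92 ± 0.26). The catalytic head genes ATP1 (0.80) and ATP2 (0.83) were typical of the rest. Of 11 genes of complex III and cytochrome c, 7 were called higher and 1 lower, median 0.72. QCR2 had 318, 274 and 301 CPM in ioc3ΔcHLB against 147, 175 and 171 CPM in ioc3Δ (0.86 ± 0.15), and the lower gene was CYC1, cytochrome c, at -0.61, under 1.5-fold without ioc3ΔcHLB replicate 2 (-0.46). Of 9 complex IV subunit genes, 6 were called higher and 0 lower, median 0.60, and this count was 3 without ioc3Δ replicate 2, without ioc3ΔcHLB replicate 3 and with scaling to plain read totals. COX4 had 205, 207 and 237 CPM in ioc3ΔcHLB against 92.8, 108 and 103 CPM in ioc3Δ (1.09 ± 0.20). HAP4, the activating subunit of the Hap complex that serves respiratory genes, had 167, 82.5 and 203 CPM in ioc3ΔcHLB and 77.1, 134 and 132 CPM in ioc3Δ. Its libraries overlapped and it was not called. The Hap box CCAAT lay on either strand within 250 bases before to 50 after the start codon in 43.7% of all tested genes, 88.2% of the ATP synthase list, 88.9% of the complex IV list and 63.6% of the complex III list. In the 600 bases before the start codon it lay in 70.5% of all tested genes and in 100%, 88.9% and 90.9% of these lists.

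**Figure D3:**
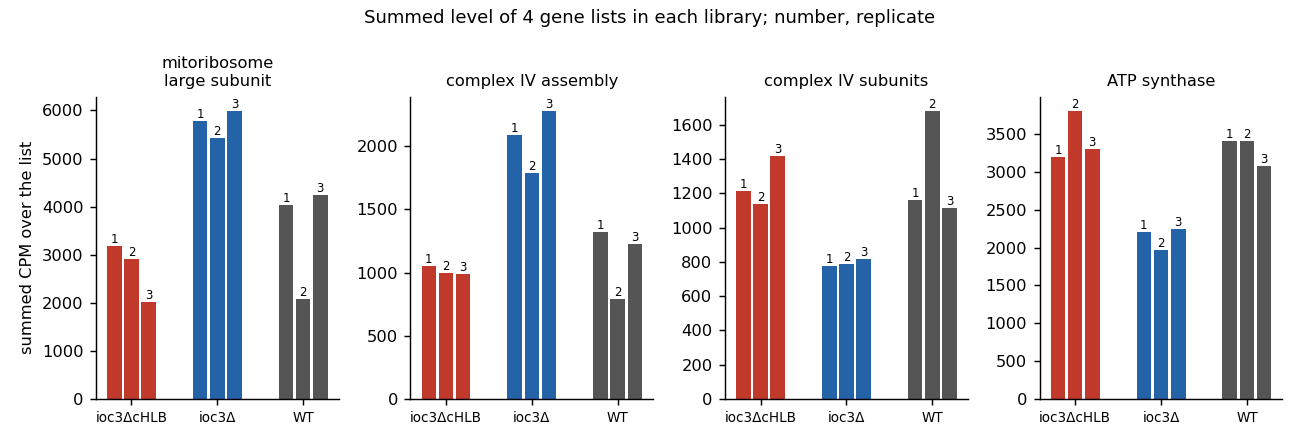
Summed CPM of 4 lists in each library of ioc3ΔcHLB (red), ioc3Δ (blue) and WT (grey), numbered by replicate, with axes from 0. Large-subunit mitochondrial ribosomal genes and complex IV assembly genes are highest in ioc3Δ, and complex IV subunits and ATP synthase are lowest there.

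Carbon metabolism was split within pathways. Of 20 genes of the tricarboxylic acid cycle and retrograde targets, 3 were called lower and 0 higher, with a median of 0.03. Over all tested genes the shares were 7.57% and 2.42%. The 3 catalyse steps that follow one another from citrate to alpha-ketoglutarate. IDH2, a subunit of NAD-linked isocitrate dehydrogenase, had 146, 164 and 198 CPM in ioc3ΔcHLB, 643, 524 and 942 CPM in ioc3Δ and 238, 195 and 197 CPM in WT (-2.02 ± 0.25, adjusted p = 0.00014, limma). IDH1, the other subunit, was at -1.82 ± 0.27, and ACO1, aconitase, at -1.59 ± 0.28, with 296, 386 and 452 CPM in ioc3ΔcHLB against 1023, 978 and 1425 CPM in ioc3Δ. CIT1, citrate synthase, the step before them, had 88.3, 81.9 and 140 CPM in ioc3ΔcHLB and 81.4, 130 and 97.2 CPM in ioc3Δ. Its ranges overlapped while those of the other 3 genes did not.

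Of 17 glycolytic genes, 8 were called lower and 0 higher, median -0.56, beside 7.57% and 2.42% of all tested genes. The count was 4 without ioc3Δ replicate 3, the library with the highest summed level of the list, and 5 without ioc3ΔcHLB replicate 1. ENO1, enolase, had 480, 643 and 1180 CPM in ioc3ΔcHLB, 1723, 1845 and 2595 CPM in ioc3Δ and 690, 541 and 557 CPM in WT (-1.50 ± 0.25). TDH2, glyceraldehyde-3-phosphate dehydrogenase, was at -1.30 ± 0.28 and PGK1, phosphoglycerate kinase, at -1.03 ± 0.25. CDC19, the main pyruvate kinase gene, was not called. Of 19 hexose transport genes 14 were tested, as HXT13 to HXT17 were absent from the deposited table. Of the tested genes 3 were called higher and 1 lower, the lower one not without ioc3Δ replicate 1, ioc3Δ replicate 3 or ioc3ΔcHLB replicate 2. HXT2 had 244, 516 and 321 CPM in ioc3ΔcHLB, 83.6, 107 and 164 CPM in ioc3Δ and 431, 328 and 351 CPM in WT (1.59 ± 0.28). HXT4 had 382, 315 and 1225 CPM in ioc3ΔcHLB against 68.2, 81.9 and 105 CPM in ioc3Δ (2.64 ± 0.50), and HXT7, whose reads may be shared with the near-copy HXT6, 33.8, 38.8 and 78.0 against 5.03, 9.06 and 13.2 CPM (2.33 ± 0.66). Replicate 3 was the highest ioc3ΔcHLB library in HXT4 and HXT7. The same held for TIR1 (2.70, adjusted p = 0.067, limma) and the hypoxic gene ANB1 (2.28, adjusted p = 0.087, limma), for which the calls were lost without that replicate (1.57 with adjusted p = 0.27, and 1.30 with adjusted p = 0.33), and also without any 1 library of ioc3Δ (adjusted p = 0.12 to 0.17 and 0.13 to 0.19), and for ANB1 without ioc3ΔcHLB replicate 2 (adjusted p = 0.13).

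**Figure D4:**
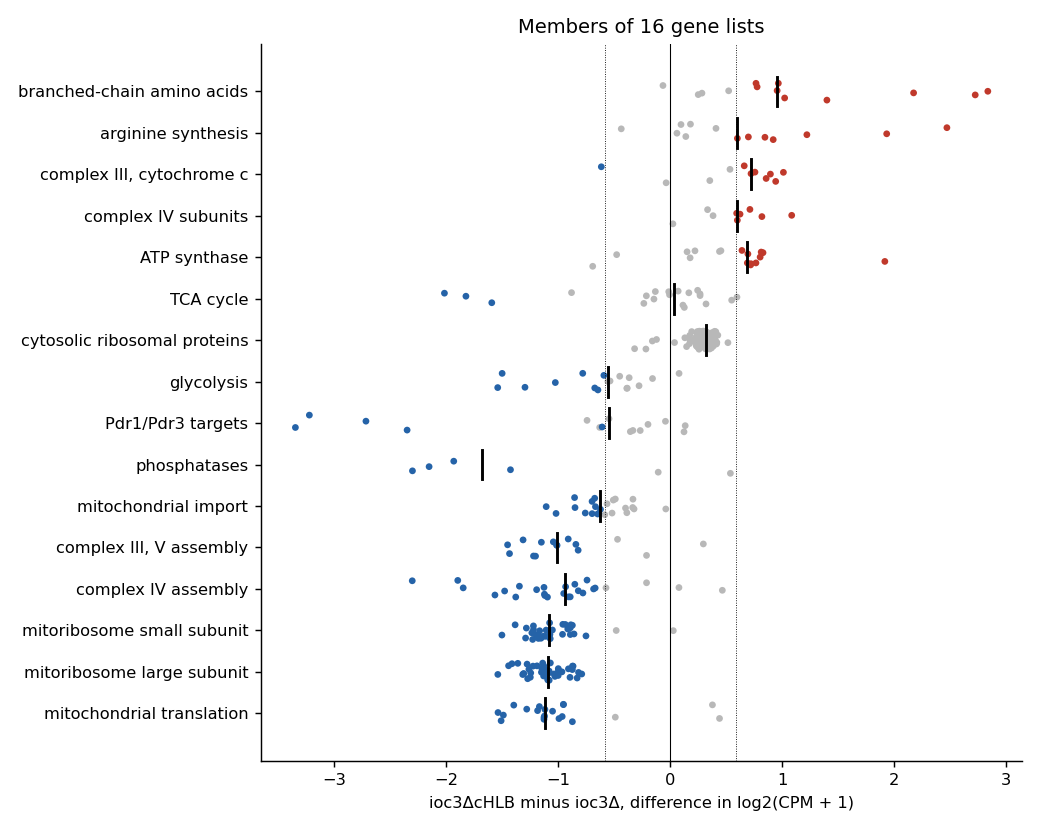
Difference ioc3ΔcHLB minus ioc3Δ in log2(CPM + 1) for the tested members of 16 gene lists, 1 point a gene, with red and blue for genes called higher and lower, grey for the rest, a black bar at each list's median and dotted lines at 1.5-fold. Mitochondrial ribosome, translation and assembly genes have medians left of 0, and respiratory subunits, ATP synthase and branched-chain genes have medians right of it.

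Ribosome genes of the cytosol and several other groups were mostly under the fold line, beside 2.42% called higher and 7.57% lower over all tested genes. None of the 138 cytosolic ribosomal protein genes was called at this threshold, although their median was 0.32, and limma's unadjusted p was under 0.05 for 101 of them. Of 72 ribosome biogenesis genes 8 were called higher and 0 lower, median 0.45, with 71 of 72 above 0 and an unadjusted p under 0.05 for 66 (limma), led by the helicase gene DBP2 (0.88), SDA1 (0.74) and the methyltransferase gene BUD23 (0.67), and the count was 33 without ioc3ΔcHLB replicate 3, 4 without replicate 1 and 3 without replicate 2 of that strain. No gene was called among 11 histone genes, 24 ergosterol genes and 32 proteasome genes, where the unadjusted p was under 0.05 for 0, 5 and 12 genes. Fits without 1 library called at most 4 genes of the ribosomal protein, histone, ergosterol or proteasome lists, and DESeq2 called 3 of the ergosterol genes. Over 18 chaperone genes 4 were called lower and 0 higher, with 1 called without ioc3Δ replicate 3 and 2 without ioc3Δ replicate 2 or ioc3ΔcHLB replicate 2, and the mitochondrial chaperonin gene HSP60 had 510, 572 and 469 CPM in ioc3ΔcHLB against 1199, 954 and 1980 CPM in ioc3Δ (-1.35 ± 0.29). Over 23 iron genes 4 were called lower and 0 higher, with 1 called without ioc3Δ replicate 3 and 2 without ioc3ΔcHLB replicate 1 or 3, of which the siderophore transporter gene ENB1 (-0.72 ± 0.14) had 37.1, 37.2 and 45.2 CPM in ioc3ΔcHLB and 60.9, 69.4 and 67.4 CPM in ioc3Δ.

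A set of 14 genes was taken up because earlier results of these data showed them moved in both mutants. PRM2, a pheromone-regulated gene, had 17.6, 13.9 and 15.4 CPM in ioc3ΔcHLB, 23.7, 18.2 and 22 CPM in ioc3Δ and 1.12, 2.43 and 1.49 CPM in WT. The mutants' difference was -0.42 with a 95% interval of -1.0 to 0.15 and was not called. HOP1, a meiotic chromosome gene, had 5.86, 5.46 and 6.56 CPM in ioc3ΔcHLB, 6.71, 6.92 and 5.69 CPM in ioc3Δ and 3.07, 2.82 and 2.87 CPM in WT, with an interval of -0.42 to 0.23. INA1 had 505, 1064 and 717 CPM in ioc3ΔcHLB, 979, 304 and 512 CPM in ioc3Δ and 175, 212 and 120 CPM in WT, with a wide interval of -0.39 to 1.28. Both mutants were above every WT library in all 3 genes, and their ranges overlapped in HOP1 and INA1. MEI4 (-0.39 to 0.34), BOP2 (-0.48 to 0.41), AMF1 (-0.27 to 0.54), PUL3 (-0.11 to 0.75) and MXR1 (-0.79 to 0.12), the last below WT in both mutants, were also not called. The intervals of PRM2, INA1, PUL3 and MXR1 reach past 1.5-fold, and none of them shows that the mutants were alike.

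STE3, the a-factor receptor gene, was between them, with 6.76, 7.05 and 7.49 CPM in ioc3ΔcHLB, 12.9, 9.40 and 14 CPM in ioc3Δ and 1.67, 1.28 and 0.920 CPM in WT, and its difference of -0.68 was not called (adjusted p = 0.13, limma). CAT8, an activator of gluconeogenic genes, was at -0.56, under 1.5-fold. The call of PRM9 (-0.64) was lost without ioc3Δ replicate 1 or without ioc3ΔcHLB replicate 1 or 2 (-0.55 to -0.56), that of the endopolygalacturonase gene PGU1 (0.70) without ioc3ΔcHLB replicate 2 (0.51) or ioc3Δ replicate 2 (0.55), and that of the nitrogen regulator DAL80 (-0.71) without any 1 library other than ioc3ΔcHLB replicate 1 (adjusted p = 0.12 to 0.29). For PRM9 the libraries read 12.2, 12 and 17.5 CPM in ioc3ΔcHLB, 24.8, 21 and 20.1 CPM in ioc3Δ and 3.77, 5.76 and 6.09 CPM in WT, so that the truncation strain stood between the other strains.

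The same alleles were compared once more without YAF9, in a separate set of libraries. Between ioc3ΔcHLB yaf9Δ and ioc3Δ yaf9Δ, 118 genes (2.04%) were called higher and 160 (2.77%) lower. Of these, 129 were called lower in both backgrounds, 29.5% of the 438 with YAF9 and 80.6% of the 160 without it, and 19 were called higher in both, 13.6% of the 140 and 16.1% of the 118. The genes called higher with YAF9 had a median of 0.18 without it, and those called lower had -0.42. Whether the shares differ between higher and lower genes was not tested.

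Drug resistance and mitochondrial ribosome genes were also called without YAF9. PDR5 had 512, 637 and 628 CPM in ioc3ΔcHLB yaf9Δ and 3308, 2313 and 3354 CPM in ioc3Δ yaf9Δ (-2.32 ± 0.18, adjusted p = 1e-06, limma), RSB1 was at -2.87, CIS1 at -2.70, PDR15 at -1.53 and PDR3 at -1.07. Of the mitochondrial ribosome genes, 34 of 43 and 27 of 33 were called lower, with medians of -0.79 and -0.73. INH1 was at 1.69, HXT2 at 1.69 and ARO10 at 1.14, each called higher. PHO84 had 38.8, 13.7 and 10.8 CPM in ioc3ΔcHLB yaf9Δ against 144, 81.5 and 358 CPM in ioc3Δ yaf9Δ (-3.10 ± 0.46), at lower levels in both strains than with YAF9.

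Branched-chain and phosphatase genes were not. LEU1 had 173, 173 and 174 CPM in ioc3ΔcHLB yaf9Δ and 192, 151 and 180 CPM in ioc3Δ yaf9Δ, where all 6 libraries were at the low level that only ioc3Δ showed with YAF9. None of the 13 branched-chain genes was called without YAF9 (unadjusted p under 0.05 for 2, limma), with a median of 0.08. OAC1 and BAT1 were at -0.06 and 0.07. PHO11 had 1.21, 0.817 and 0.727 CPM in ioc3ΔcHLB yaf9Δ and 1.36, 0.625 and 1.96 CPM in ioc3Δ yaf9Δ, and none of the 6 phosphatase genes was called there (unadjusted p under 0.05 for 2).

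The difference of the differences was tested in the same fit, the one with YAF9 minus the one without. It was called for 495 genes (8.56%), 247 (4.27%) above 0 and 248 (4.29%) below. It was 2.84 ± 0.30 for LEU1 (adjusted p = 0.00021, limma), 2.78 ± 0.31 for OAC1, 2.11 ± 0.26 for BAT1, 2.08 ± 0.56 for ARG3 and 1.75 ± 0.19 for ALD5, the largest above 0 by the rule for named genes. Below 0, the same rule gave -2.14 for the heat shock chaperone gene HSP82, -2.06 for PHO11, -2.02 for SIT1, -1.98 for the glucokinase gene GLK1 and -1.93 for IDH2. SIT1 encodes a siderophore transporter. HSP82 was not called in either background alone (-1.04 with YAF9 and 1.10 without), and GLK1 was called higher without YAF9 only (-0.56 with and 1.42 without). For PDR5 it was -0.90 ± 0.25 (adjusted p = 0.052, limma), so that its difference was larger with YAF9, while RSB1, CIS1, INH1, HXT2 and ARO10 were not called. Of the 72 ribosome biogenesis genes, 59 were called above 0 and 0 below, median 0.74, their own medians being 0.45 with YAF9 and -0.27 without. That count was 20 without ioc3ΔcHLB replicate 2, ioc3ΔcHLB yaf9Δ replicate 2 or 3 or ioc3Δ yaf9Δ replicate 1, 27 and 37 without ioc3Δ replicates 3 and 1, 33 without ioc3ΔcHLB replicate 1, 34 with plain read totals and 2 with only the compared strains in the fit. Of the branched-chain genes 6 of 13 were called above 0, with 6 or 7 in every fit without 1 library.

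The count over all genes rested on the libraries and strains in the fit. When only the 4 compared strains entered, 26 genes were called. The strain yaf9Δ, left out of that fit, had a median SD between libraries of 0.079 in log2(CPM + 1), against 0.153 to 0.186 in the other strains. Whether this accounts for the lower count was not tested. Over the 12 fits without 1 library, 91 genes (55 above 0, 36 below) were called in all of them. The count was 122 without ioc3Δ yaf9Δ replicate 1, 123 and 122 without ioc3ΔcHLB yaf9Δ replicates 2 and 3, 155 and 306 without ioc3Δ replicates 3 and 1, 159 and 249 without ioc3ΔcHLB replicates 2 and 1, and 882 without ioc3ΔcHLB yaf9Δ replicate 1. Of the genes named, LEU1, OAC1, BAT1, ALD5, PHO11 and IDH2 were called in all 12, and ARG3, HSP82, SIT1, GLK1 and PDR5 were not called in 5 to 8 of them.

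**Figure D5:**
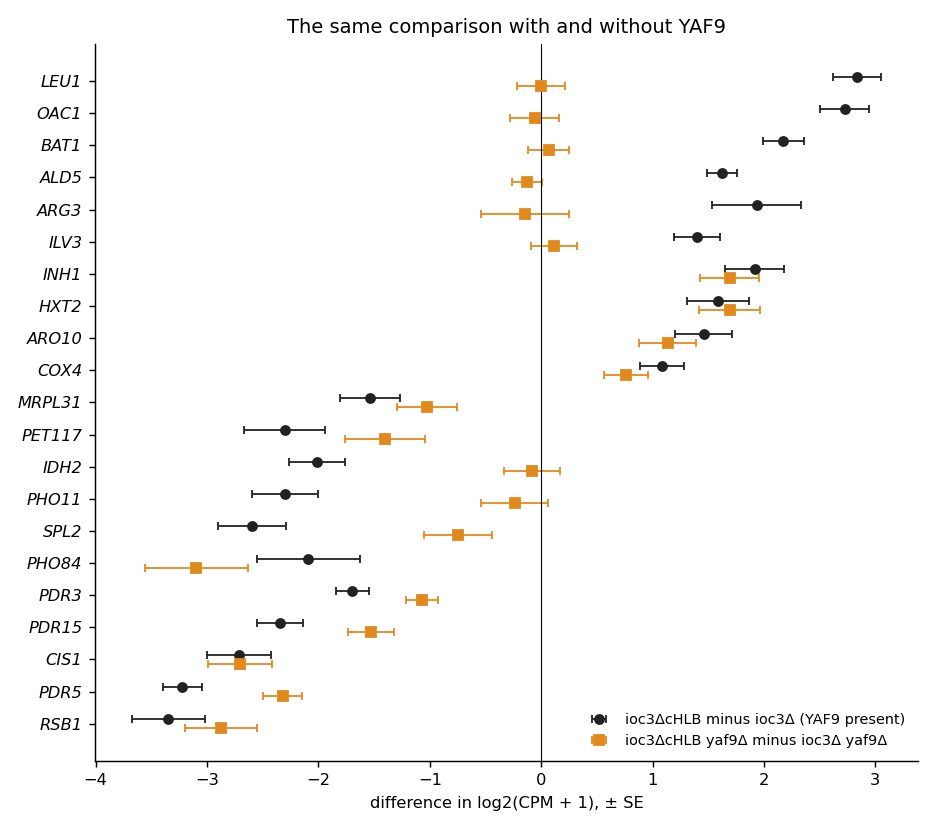
Difference between the truncation and the deletion in log2(CPM + 1), ± SE from limma, for 21 genes with YAF9 present (circles, ioc3ΔcHLB minus ioc3Δ) and with YAF9 deleted (squares, ioc3ΔcHLB yaf9Δ minus ioc3Δ yaf9Δ). LEU1, OAC1, BAT1 and ALD5 are near 0 without YAF9, and PDR5, RSB1, CIS1, INH1 and HXT2 differ in both backgrounds.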

How the data were processed

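Poly(A) RNA of 18 cultures (6 strains, 3 libraries each) was read as stranded paired-end libraries. Per the labels and the study's methods, alignment to sacCer3 used TopHat2 2.0.10 on Bowtie2 2.0, genes were counted with htseq-count, and the authors wrote CPM from edgeR 3.6.2 at effective library sizes. The deposited signal is therefore a gene's reads scaled by the library total times an edgeR factor, so column sums differ. Whole reads could be recovered for every value to within 0.01 reads, with a slightly wider limit at high counts. The read totals of 5145170 to 10192972 limit the precision of low genes, and intervals from reads cover counting error only. The 4 lines with no values were left out.

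From these values limma (3.58.1, R 4.3.3, mean-variance trend) was fitted to log2(CPM + 1) of all 18 libraries with a mean per strain, for the 5786 of 5830 genes that reached 1 CPM in 3 or more libraries. Genes were called at a Benjamini-Hochberg adjusted p under 0.1 and at least 1.5-fold. The pseudocount understates changes of low genes. The fit was tested on simulated data, drawn gene by gene without deviations shared across a library. That test therefore does not cover false calls from libraries that stand apart across all genes. Alternatives were other pseudocounts, no filter, 2 other scalings, edgeR (4.0.16) and DESeq2 (1.42.0) on recovered reads, fewer strains, array weights, a replicate block, stricter thresholds and leaving out each library.

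Genes named were the 15 largest differences each way among called genes with a symbol, at least 5 CPM and no overlap, members of lists of up to 20 genes by role, the 4 largest each way of longer lists, the 5 largest each way between backgrounds, and genes fixed by name. Lack of overlap in genes named by the first of these rules is therefore no separate result. BAP2, MAE1, SLP1 and KGD4 fall outside this rule and were chosen after their values were seen. The members and lists were chosen with earlier results of these data known. Sequences and positions are from the RefSeq annotation of the R64 assembly, in which 5634 of the 5830 genes were matched. Motifs were searched on both strands, in 250 bases before to 50 after the start codon and in the 600 bases before it. Same-numbered libraries were checked over the 3 numbers, by a rule of every correlation over 0.1. They deviated together for ioc3Δ yaf9Δ and ioc3Δ (0.23, 0.60 and 0.57) and for ioc3Δ and WT (0.21, 0.21 and 0.11). No other pair of strains passed, and the labels do not explain this hint. The rule did not screen differently numbered libraries. Those of ioc3ΔcHLB and WT reached 0.50 (numbers 1 and 3), 0.48 (2 and 1) and 0.62 (3 and 2), which a block by number does not cover.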

Additional observations from a re-analysis of the deposited data

Results flagged for a closer look

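The difference between ioc3ΔcHLB and ioc3Δ was itself different with YAF9 and with YAF9 deleted for 35 of the genes named in the text, by the test of the difference of differences in limma at the same threshold (adjusted p 0.00021 to 0.09). Values are the difference with YAF9 minus the difference without it, in log2(CPM + 1), from 3 libraries a strain. In branched-chain synthesis and the genes next to it in metabolism the values were all above 0, for LEU1 (2.84), OAC1 (2.78), BAT1 (2.11), ILV3 (1.29), ILV2 (0.87), ILV5 (0.85), BAP2 (0.63), ALD5 (1.75) and MAE1 (1.54). Arginine synthesis gave ARG3 (2.08), ribosome biogenesis, in which 59 of 72 genes were called above 0, gave DBP2 (1.11), SDA1 (0.96) and BUD23 (1.2), and SLP1 beside PDR5 was at 0.63.

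The phosphate genes called were all below 0, for SPL2 (-1.85), PHO5 (-1.22), PHO11 (-2.06), PHO12 (-1.92), PHM8 (-1.70), VTC3 (-0.80) and PHM6 (-1.31). PHO84 was at 1.0 ± 0.65 and was not called (adjusted p = 0.38, limma). The drug resistance genes PDR5 (-0.90) and PDR3 (-0.62) were also below 0. In carbon metabolism the values were below 0 for IDH2 (-1.93), IDH1 (-1.56), ACO1 (-1.62), ENO1 (-1.22), TDH2 (-1.34), PGK1 (-1.34) and GLK1 (-1.98). The remaining genes were the siderophore transporter genes SIT1 (-2.02) and ENB1 (-1.15), the chaperone gene HSP82 (-2.14), the pheromone receptor gene STE3 (-1.21) and the ceramidase gene YDC1 (-1.12).

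Of the 35, 11 stayed called in all 22 alternative fits, namely PHO12, LEU1, OAC1, BAT1, ILV3, ILV2, ALD5, MAE1, IDH2, BUD23 and ENB1. No group of 4 or more libraries exists in these data, so this section did not screen for single libraries far from their fellows.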

How the results depend on the processing

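The count of 578 genes called between ioc3ΔcHLB and ioc3Δ ranged between 444 and 648 over the 16 other fits, with 444 to 636 without 1 of the 6 compared libraries, 601 by edgeR and 609 by DESeq2. It was 498 at an adjusted p under 0.05 and 207 at 2-fold. Scaling to plain read totals moved the median of all genes to -0.09 and the split to 88 higher and 524 lower (14.4% higher), beside 140 and 438 (24.2%), and without ioc3ΔcHLB replicate 3 the split was 218 and 418 (34.3%). The count of 495 genes for the difference between backgrounds was less firm: 316 with plain read totals, 26 with only the compared strains in the fit, 1299 with array weights, 208 at an adjusted p under 0.05, 115 at 2-fold and 122 to 882 without 1 library, while pseudocounts, no filter, median-of-ratios scaling, edgeR and DESeq2 gave 443 to 567. The genes called against WT numbered 8 to 74 for ioc3ΔcHLB and 591 to 745 for ioc3Δ without 1 library. These WT fits were chosen after seeing the data.

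Of 91 named genes called between the mutants, 77 stayed called in every fit. PDR16, PHO89, PHO90, LEU2, CYC1, TIR1, ANB1, PRM9, PGU1, DAL80, SIT1, GAL7, ALD6 and UGA1 did not. CMK1, MXR1, STE3, CAT8 and HSP82 gained a call in at least 1 fit. The sign turned for genes near 0 that were not called: PDR1 without ioc3ΔcHLB replicate 3 (-0.112 to 0.0177 over fits without 1 library), AMF1 without ioc3ΔcHLB replicate 2 (-0.0215 to 0.351), MEI4 without replicate 2 of either mutant (-0.0737 to 0.0128) and BOP2 without replicate 1 of either mutant (-0.113 to 0.0624). The cause was not tested. Of 46 list medians, 7 moved by more than the spread between replicates in at least 1 fit, among them that of the ergosterol genes, at 0.22, 0.44 without ioc3ΔcHLB replicate 2 and -0.06 without ioc3ΔcHLB replicate 3.

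The replicate numbers did not pair the libraries of the mutants: same-numbered libraries of ioc3ΔcHLB and ioc3Δ correlated at -0.30, -0.33 and -0.15 in their deviations from the strain means. Differently numbered libraries of these strains correlated at up to 0.34. Of the 6 pairs among the 4 strains behind the difference between backgrounds, only ioc3Δ yaf9Δ and ioc3Δ passed 0.1 for every number (0.23, 0.60 and 0.57). Between ioc3Δ and WT, where the numbers also passed (0.21, 0.21 and 0.11), 700 genes were called with the replicate block, beside 703, and 24 between ioc3ΔcHLB and WT, beside 20 (both block fits added after seeing the data). With the replicate number as a block, 575 and 484 genes were called for the mutants and for the difference between backgrounds, PHO89 was no longer called and HSP82 was.

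The window of 600 bases before the start codon was chosen after seeing the data. In it 3.53%, 3.82% and 6.24% of all tested, called higher and called lower genes held the Pdr1/Pdr3 site, beside 1.16%, 0% and 2.31% in the window of 250 bases before to 50 after. For the Pho4 site the shares were 7.34%, 12.2% and 10.2%, beside 3.01%, 3.82% and 3.23%, and for the Leu3 core 3.14%, 15.3% and 3.23%, beside 0.891%, 5.34% and 0.462%. With 3 libraries a strain and under 5 CPM for the lowest genes described, small differences in those genes could not be resolved.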

Other observations

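The counts of this section stand beside 2.42% of all tested genes called higher and 7.57% called lower. Outside the groups described so far, the list of 17 pheromone-regulated membrane and fusion genes held 3 called lower in ioc3ΔcHLB than in ioc3Δ and 0 higher. PRM5 had 35.6, 19.0 and 11.6 CPM in ioc3ΔcHLB, 50.4, 41.2 and 57.8 CPM in ioc3Δ and 32.0, 13.3 and 29.3 CPM in WT (-1.26 ± 0.34, adjusted p = 0.021, limma), PRM4 was at -0.97, and the third was PRM9. Of 20 glucose-repressed genes 6 were called lower and 0 higher, with a median of -0.41, and 3 were called lower without ioc3Δ replicate 3 or ioc3ΔcHLB replicate 2. GAL7, a galactose enzyme gene, stood at 1.61 to 2.47 CPM in ioc3ΔcHLB, 4.61 to 4.98 CPM in ioc3Δ and 0.512 to 1.03 CPM in WT, without overlap (-0.92), though its call was lost at a pseudocount of 5. Of 28 nitrogen catabolite genes 4 were called lower and 0 higher, and 1 was called lower without ioc3Δ replicate 1, ioc3Δ replicate 3 or ioc3ΔcHLB replicate 2. UGA1, GABA transaminase, was at -0.92 and lost its call without ioc3Δ replicate 3 or ioc3ΔcHLB replicate 2. Of 287 genes within 30000 bp of a chromosome end 280 were tested, with 6 called higher and 30 lower and a median of -0.16, beside 2.42% and 7.57% of all tested genes. Of these 3 were called higher without ioc3Δ replicate 2 or 3 or ioc3ΔcHLB replicate 2, 14 were called lower without ioc3Δ replicate 3 and 19 without ioc3ΔcHLB replicate 2, and PHO11, PHO12 and PHO84 were the largest.

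On the higher side, ALD6, the cytosolic aldehyde dehydrogenase that makes acetate, had 984, 1139 and 1266 CPM in ioc3ΔcHLB, 321, 739 and 503 CPM in ioc3Δ and 1416, 1734 and 1266 CPM in WT (1.19 ± 0.34). The libraries of the mutants did not overlap, and the call was lost without ioc3Δ replicate 1. It was 1 of 2 genes called higher and 2 lower in the list of 16 fermentation genes. The list had 1 higher and 1 lower without ioc3Δ replicate 1, and 1 lower without ioc3Δ replicate 3 or ioc3ΔcHLB replicate 2. Over the 6 genes of the Ehrlich pathway 2 were called higher and 0 lower, with 1 higher without ioc3Δ replicate 1 or ioc3ΔcHLB replicate 2. Over 23 purine and one-carbon genes 1 was called higher, IMD4, an IMP dehydrogenase gene (0.81), with 4 without ioc3ΔcHLB replicate 1, 3 without ioc3Δ replicate 1 and 2 without ioc3Δ replicate 2 or 3 or ioc3ΔcHLB replicate 3. Of 23 sphingolipid genes 1 was called lower, the ceramidase gene YDC1 (-1.06), with 3 without ioc3ΔcHLB replicate 3. In 14 of 30 cell wall genes of the PAU, TIR and DAN families that were tested, 2 were called each way, with 1 higher without any 1 library of ioc3Δ or without ioc3ΔcHLB replicate 3, 0 lower without ioc3Δ replicate 1 and 1 lower without ioc3Δ replicate 3 or ioc3ΔcHLB replicate 2. Of 24 of 27 meiosis genes tested 1 was called each way, and neither was called without ioc3Δ replicate 3, while 2 were called higher without ioc3Δ replicate 1 or ioc3ΔcHLB replicate 3 and 2 lower without ioc3Δ replicate 2 or ioc3ΔcHLB replicate 3. The 16 trehalose and glycogen genes held 1 called higher, the 18 general stress genes 1 called lower and the 7 a-specific genes 1 called lower. Each of these 3 calls was lost without ioc3Δ replicate 2, among other fits. No gene was called among the 6 haploid-specific genes (unadjusted p under 0.05 for 4, limma) or the 4 alpha-specific genes (unadjusted p under 0.05 for 1). Of the alpha-specific genes edgeR and DESeq2 each called 1 lower, and neither called a haploid-specific gene.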
